A study of Mus musculus with 8 samples.

Results

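The genes described here carry out the endoplasmic reticulum (ER) stress response and the integrated stress response. They were chosen as a list of 32 mouse gene symbols, by a rule on names that uses no measured value, and they correspond to 33 of the 55385 rows of the count table because 2 Ensembl entries are named Ddit3. All 33 entries passed the filter on low counts and were among the 17537 genes tested. Messenger RNA was measured by sequencing in primary cultured microglia, the resident macrophages of the brain, from wild-type newborn (P0) mice, with 4 control libraries and 4 libraries of cells given 10 µg/ml IgG for 24 h at day 15 in vitro (DIV15). The labels call the control cells untreated, and the methods of the study describe PBS as the control. Hippocampi and neocortices of several brains were pooled for a culture. Each control library carries the same date in its label as the IgG library of the same number, so that the data form 4 pairs. The labels do not say what the date marks, and date, pooled brains and library preparation cannot be told apart within this design.

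Proteins that enter the secretory pathway fold in the ER with the help of chaperones and of enzymes that form disulfide bonds. When unfolded protein accumulates there, the sensors IRE1α (gene Ern1), ATF6 and PERK (gene Eif2ak3) start the unfolded protein response. IRE1α splices the Xbp1 messenger RNA, ATF6 is cut and moves to the nucleus, and PERK phosphorylates the translation factor eIF2α. The last step is shared with other kinases in the integrated stress response, lowers protein synthesis and favours translation of the transcription factor ATF4, whose targets include Ddit3, Trib3, Chac1 and Asns. Macrophages secrete much protein and use Xbp1 also in responses to microbial products. Counts per gene show the amount of messenger RNA. They show neither the spliced form of Xbp1, nor cleavage of ATF6, nor translation of Atf4.

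Total counts ran from 21287816 to 23703216 per library. The level of a gene in a library is its count scaled to the library total (CPM). A count of 0 would allow up to 0.124 to 0.147 CPM (3 counts, counting error only), and the lowest level of any of the genes was 1.91 CPM. IgG libraries 1 and 3 stood apart from the rest, since mitochondrial genes took 4.85% and 5.59% of their counts against 1.97% to 2.41% in the other 6 libraries. All 12 microglial markers were tested, 2 passed an adjusted p of 0.05, and their summed level was 7534 to 8309 CPM without and 8450 to 9035 CPM with IgG. The brain microglia markers P2ry12 and Tmem119 were low, at 5.42 to 16.0 CPM and 4.69 to 8.78 CPM over the 8 libraries. The 8 markers of the oligodendrocyte lineage, none of them at 0, summed to 1218 and 1262 CPM in controls 1 and 3 and to 1826 and 1645 CPM in controls 2 and 4, and the IgG libraries of the same pairs had 1076, 1094, 1728 and 1612 CPM. The 8 astrocyte markers, none of them at 0, summed to 157 to 175 CPM without and 141 to 166 CPM with IgG. The part of these differences in the results was not tested. In RNA from whole cultures, fewer cells of a type and less RNA per cell cannot be told apart.

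Short DNA elements are known through which the ER stress factors act on their targets. The ER stress response element (ERSE) is bound by ATF6 and XBP1 together with NF-Y, and the C/EBP-ATF response element (CARE) by ATF4 with its partners. Both strands of the 250 bases before the RefSeq start site (build GRCm38.p6) were searched for ERSE (CCAAT and CCACG with 9 bases of any kind between them), ERSE-II (ATTGG and CCACG with 1 base between them), the unfolded protein response element (UPRE, TGACGTGG) and CARE (TGATGNAA). Windows were found for 29 of the 32 symbols, and Hyou1, Manf and Atf6 had none. ERSE was present before 8 of the 29 genes (27.6%), against 0.113% of all 32851 windows. For each motif the first share is of genes and the second of windows, and a gene can have more than 1 window. The 8 genes with ERSE were 7 of the 14 chaperones and folding enzymes, of which Hyou1 and Manf could not be searched, and Syvn1 of ER-associated degradation. All 9 matches are shown. The genes were listed as parts of this response and the motifs searched are its known elements. A high share of genes with a motif is thus a description and no independent result. They are written 5′ to 3′ in the motif's own direction, in capitals throughout:
Hspa5: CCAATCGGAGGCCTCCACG
Hsp90b1, farther from the start: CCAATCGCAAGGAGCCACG
Hsp90b1, nearer to the start: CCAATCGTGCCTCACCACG
Calr: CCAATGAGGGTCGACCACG
Canx: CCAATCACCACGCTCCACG
Pdia6: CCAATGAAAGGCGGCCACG
Dnajc3: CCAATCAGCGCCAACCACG
Creld2: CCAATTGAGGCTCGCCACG
Syvn1: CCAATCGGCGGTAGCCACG

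CARE was present before Asns, Atf3, Chac1 and Herpud1, which is 4 of 29 genes (13.8%) against 3.45% of all windows. ERSE-II was present before Herpud1 alone of the 29, against 0.0304% of all windows, and UPRE before none of them, against 0.563%. The Herpud1 window ends inside a stretch that matches ERSE in all but its last base. That base lies beyond the window and was not searched, so Herpud1 is not counted among the genes with ERSE. None of the 4 motifs overlapped another in these windows. Longer stretches are shown for Herpud1, which holds both ERSE-II and CARE, for Hsp90b1, which holds ERSE on both strands, and for Chac1, an ATF4 target with CARE. Each is the part of the window outside annotated exons, 5′ to 3′ on the strand of the gene, with the matches in capitals:
Herpud1, chr8:94386179-94386428, plus strand: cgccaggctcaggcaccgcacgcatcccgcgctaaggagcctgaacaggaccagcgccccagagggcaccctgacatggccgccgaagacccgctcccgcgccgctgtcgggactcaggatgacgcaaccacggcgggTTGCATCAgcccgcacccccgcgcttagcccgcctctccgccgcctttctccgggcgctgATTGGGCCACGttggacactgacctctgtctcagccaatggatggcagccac
Hsp90b1, chr10:86705510-86705694, minus strand: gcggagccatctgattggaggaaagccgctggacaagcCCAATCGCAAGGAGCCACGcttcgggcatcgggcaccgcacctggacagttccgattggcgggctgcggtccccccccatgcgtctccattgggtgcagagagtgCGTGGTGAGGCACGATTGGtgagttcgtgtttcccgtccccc
Chac1, chr2:119350992-119351228, plus strand: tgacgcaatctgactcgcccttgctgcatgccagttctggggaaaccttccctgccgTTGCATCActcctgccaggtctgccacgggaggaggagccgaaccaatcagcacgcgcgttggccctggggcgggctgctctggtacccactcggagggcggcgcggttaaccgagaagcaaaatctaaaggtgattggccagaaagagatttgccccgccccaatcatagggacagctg

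Levels per kilobase of exon, which allow one gene to be compared with another, spanned a wide range in control microglia. Calr was highest at a mean of 310 CPM per kilobase, followed by Pdia3 at 188, Hspa5 at 156, Atf3 at 154 and Hsp90b1 at 149 CPM per kilobase. Atf3, a stress-induced transcription factor, was thus at a level near that of Hspa5 and Hsp90b1, and below that of Calr, in cells that had received no IgG. The sensors were low, with 7.71 CPM per kilobase for Atf6, 5.89 for Eif2ak3 and 5.67 for Ern1. The ATF4 targets Trib3 and Chac1 were lowest, at 2.59 and 1.33 CPM per kilobase.

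**Figure D1:**
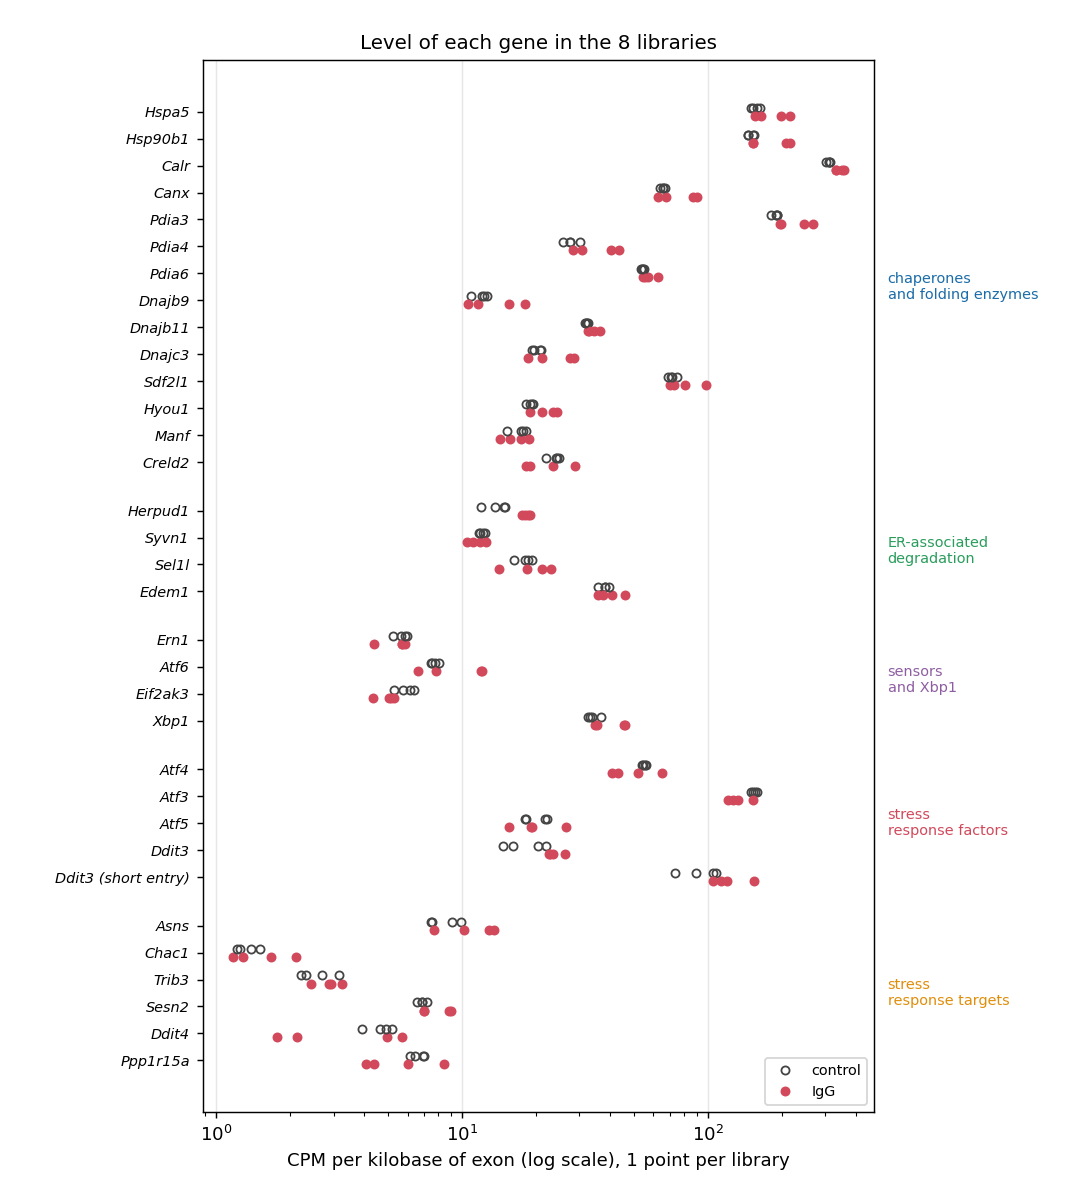
Level of each of the 33 entries (CPM per kilobase of exon, log scale) in the 4 control libraries (open circles) and the 4 IgG libraries (filled circles), 1 point per library. Control levels per kilobase run from a mean of 1.33 for Chac1 to 310 for Calr, and for most genes the IgG points spread more widely than the control points.

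The comparison asks whether IgG moved these genes. With edgeR's quasi-likelihood test and the pair as a block, 0 of 33 entries passed an adjusted p of 0.05, where 69 of 17537 genes did (0.393%). That count over all genes was itself unsteady, at 14, 0, 16 and 182 genes without pairs 1, 2, 3 and 4. None met the study's criterion of an unadjusted p under 0.01 with an absolute log2 fold change above 0.5 either, which 1.82% of all genes met. At an unadjusted p under 0.05, 7 entries were higher with IgG, against 6.35% of all genes, namely Pdia3, Pdia4, Herpud1, Xbp1, both Ddit3 entries and Asns. The 2 Ddit3 entries overlap, and with the longer one only, 6 of 32 symbols were higher. At the same threshold 1 entry, Eif2ak3, was lower, against 3.85% of all genes. These counts moved with single pairs, as did those over all genes. Without pair 1, 2 entries were higher (3.04% of all genes) and 1 lower (1.4%). Without pair 2, 7 were higher and 0 lower, and the share over all genes was not counted for that fit. Without pair 3, 3 were higher (2.75%) and 0 lower (1.5%). Without pair 4, 14 were higher (12.1%) and 4 lower (11.3%). With library totals only, 4 were higher (3.28%) and 2 lower (8.68%). At an adjusted p of 0.05 DESeq2 called 0 entries (1.32% of all genes) and limma-voom 0 entries (0.502% of all genes), with 8 and 10 entries at an unadjusted p under 0.05 (7.56% and 10.2% of all genes). Without the block, edgeR called 0 entries at an adjusted p of 0.05 (0% of all genes), and 0 met the study's criterion (0.844% of all genes). In that fit 6 entries were higher at an unadjusted p under 0.05 (4.83% of all genes) and 2 lower (2.18%). The fold changes were small throughout. The median log2 fold change over the 33 entries was 0.16 beside -0.01 over all genes tested, and 23 entries were above 0, where 49.1% of all genes were. With the longer Ddit3 entry only, 22 of 32 symbols were above 0. Scaling by library totals only moved the median of all genes to -0.11 and that of the entries to 0.06. The median of the entries was 0.30 in pairs 1 and 3 alone and 0.076 in pairs 2 and 4 alone. No 95% interval reached beyond a log2 change of 1.07 in either direction, which is 2.11-fold.

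Pairs give a second description. In 4 of 4 pairs, 12 entries were higher with IgG, as were 10.4% of all genes, and no entry was lower in all 4, as were 8.47% of all genes. Of the 32 symbols with the longer Ddit3 entry only, 11 were higher in all 4 pairs. In 4 genes, Calr, Pdia3, Herpud1 and Ddit3, the lowest IgG library was above the highest control, which held for 2.6% of all genes. No entry had its highest IgG library below its lowest control, which held for 1.57% of all genes. These counts are of CPM on TMM-scaled totals. With library totals only, 7 entries were higher in all 4 pairs (5.62% of all genes) and 3 were lower in all 4, Syvn1, Eif2ak3 and Atf3 (16.1%). The groups then did not overlap in Herpud1, where IgG was higher (1.16% of all genes), and in Eif2ak3 and Atf3, where it was lower (3.4%).

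**Figure D2:**
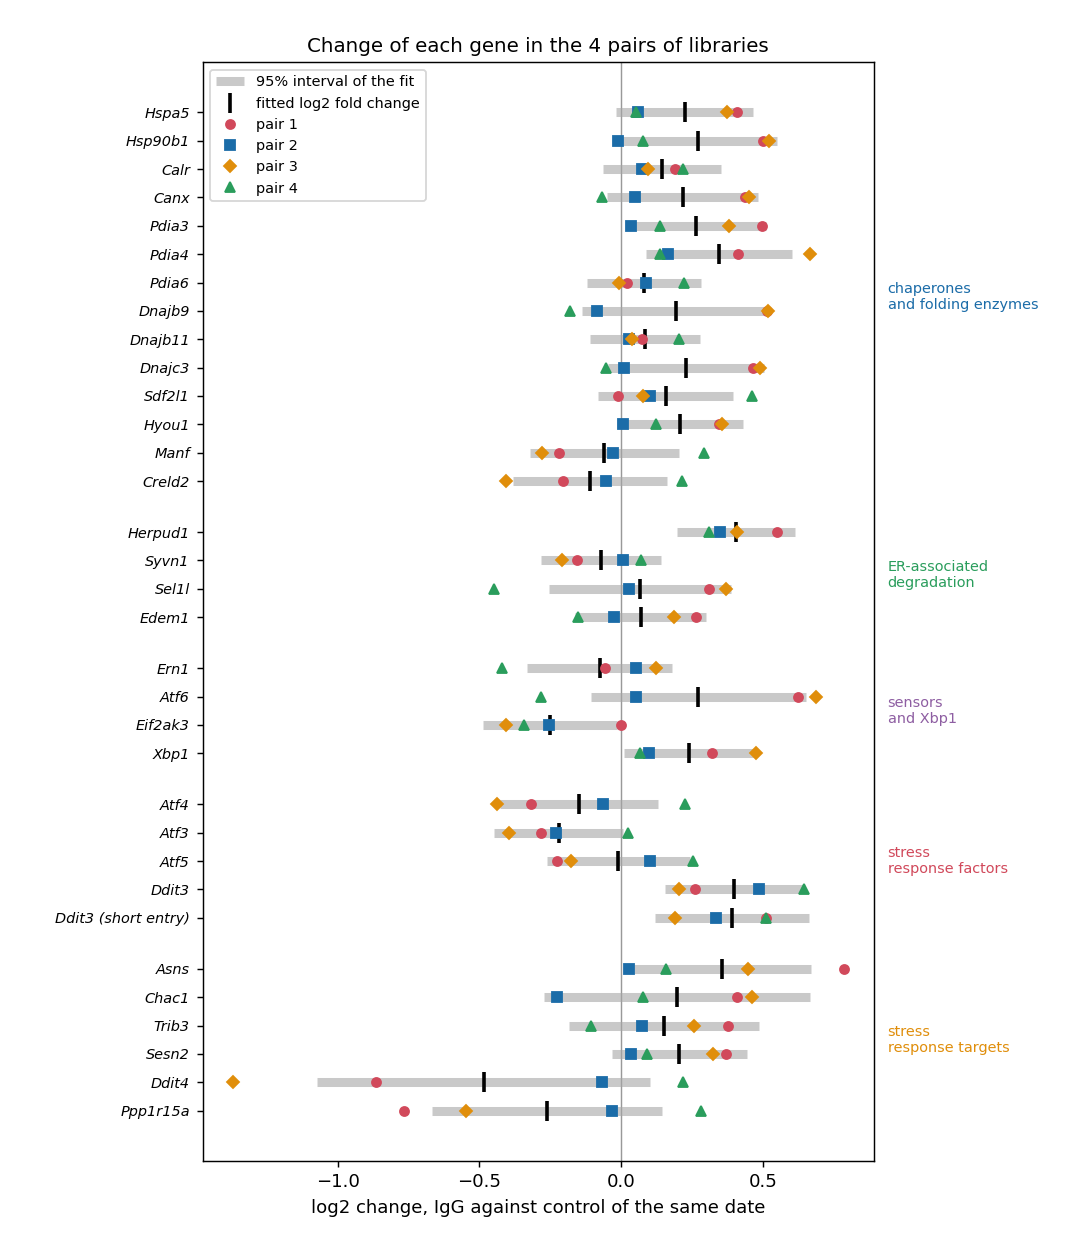
Log2 change of each entry from control to IgG in the 4 pairs (coloured symbols), with the fitted log2 fold change (black tick) and its 95% interval (grey bar). Herpud1 and Ddit3 are above 0 in every pair, while pairs 1 and 3 often lie on one side of pair 4, most widely for Ddit4 (-1.37 in pair 3 and 0.22 in pair 4).

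Of the 14 chaperones and folding enzymes, 12 had a log2 fold change above 0, where 49.1% of all genes did. The median was 0.20, and none passed an adjusted p of 0.05. With library totals only, Pdia6 and Dnajb11 turned to -0.021 and -0.016, where 30.2% of all genes were above 0. Their summed level was 3866 CPM ± 87.4 without IgG and 4478 CPM ± 478 with it (SD, n = 4 each), on TMM-scaled totals. On that scale the sum was 5024, 4046, 4733 and 4108 CPM in IgG 1 to 4 and at most 3949 CPM in a control. As a share of raw counts, however, the groups overlapped, with 0.404%, 0.409%, 0.394% and 0.392% in controls 1 to 4 and 0.458%, 0.419%, 0.438% and 0.407% in IgG 1 to 4. IgG libraries 1 and 3, the ones with the high mitochondrial share, were the 2 highest on both scales.

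Pdia4, a protein disulfide isomerase, had 72.7, 66.1, 65.7 and 61.6 CPM in controls 1 to 4 and 96.7, 74.0, 104 and 67.7 CPM in IgG 1 to 4. It was higher in every pair, yet the groups overlapped because IgG 4 was below control 1. The log2 fold change was 0.34 (SE 0.11, unadjusted p = 0.0145, adjusted p = 0.381 by edgeR). Pdia3, which folds glycoproteins together with the lectins calreticulin and calnexin, had 565 to 601 CPM in control and 843, 616, 773 and 621 CPM in IgG 1 to 4. Its groups did not overlap on TMM-scaled totals, although IgG 2 exceeded the highest control by little, and its log2 fold change was 0.26 (SE 0.11, adjusted p = 0.475 by edgeR).

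Hspa5 (BiP), the main ER chaperone and the standard readout of the unfolded protein response, lies at chr2:34771970-34777547 on the plus strand. It had 689, 668, 646 and 634 CPM in controls 1 to 4 and 915, 695, 837 and 658 CPM in IgG 1 to 4. The level was higher in every pair, by a log2 change of 0.41 and 0.37 in pairs 1 and 3 but 0.06 and 0.05 in pairs 2 and 4. Its log2 fold change was 0.22 with a 95% interval of -0.02 to 0.46 (adjusted p = 0.51 by edgeR). Hsp90b1 (GRP94), the ER member of the HSP90 family, was likewise high in IgG 1 and 3, with 872 and 840 CPM in IgG 1 and 3, 614 and 617 CPM in IgG 2 and 4, and 585 to 619 CPM in control. In pair 2 it was slightly lower with IgG, by a log2 change of -0.012.

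Calr is the calcium-binding lectin calreticulin. Its control level was 867 to 905 CPM and its IgG level 1027, 953, 958 and 1009 CPM, so that the groups did not overlap on this scale, although the log2 fold change was only 0.14 (SE 0.09, adjusted p = 0.598 by edgeR). Canx, the membrane-bound lectin calnexin, had 298 to 313 CPM in control and 424, 318, 407 and 295 CPM in IgG 1 to 4, and here IgG 4 was below every control. Hyou1, a nucleotide exchange factor for BiP, was higher in every pair with a log2 fold change of 0.21 (SE 0.10). Its log2 changes were 0.35 and 0.36 in pairs 1 and 3, 0.12 in pair 4 and only 0.0045 in pair 2. Dnajb11, a BiP co-chaperone, was also higher in every pair, by log2 changes of 0.03 to 0.20.

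Dnajc3 (p58IPK), a co-chaperone and inhibitor of PERK, and Dnajb9 (ERdj4) were each higher in pairs 1 and 3, with log2 changes of 0.47 and 0.49 for Dnajc3 and 0.51 and 0.52 for Dnajb9. In pair 4 the changes were -0.06 and -0.18. Sdf2l1, a partner of ER J-domain proteins, went the other way between pairs, with 76.3 to 83.2 CPM in control and its highest level, 109 CPM, in IgG 4. Pdia6 differed little, with a log2 fold change of 0.08 and an interval of -0.12 to 0.28. Manf, a secreted ER stress protein, and Creld2, an ER-resident folding protein, had fold changes below 0, at -0.06 and -0.11 on the log2 scale. Manf was 55.2 and 50.3 CPM in IgG 1 and 3 and 65.9 CPM in IgG 4, against 53.9 to 64.4 CPM in control. Creld2 was 25.9 and 24.7 CPM in IgG 1 and 3 and 39.1 CPM in IgG 4, against 29.9 to 33.7 CPM in control. Some entries share exonic bases with genes on the opposite strand, the most being 10.3% of Hsp90b1 (with 1810014B01Rik) and 8.05% of Eif2ak3 (with Gm43292), against 4.71% of Manf (with 4930524O07Rik). Whether the counting used strand is not given in the sources used here.

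Over the 8 genes with ERSE, 6 had a log2 fold change above 0, where 49.1% of all genes did, and the median was 0.18 with a range of -0.11 (Creld2) to 0.27 (Hsp90b1). With library totals only, Pdia6 of these 8 turned to -0.021, where the median of all genes was -0.11. Over the 4 genes with CARE, 3 were above 0 and the median was 0.28. None of these genes passed an adjusted p of 0.05.

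Herpud1 had the smallest p of all entries. It encodes an ER membrane protein that helps to bring misfolded proteins to the degradation machinery, and lies at chr8:94386438-94395377 on the plus strand. Controls 1 to 4 had 27.8, 34.7, 31.8 and 34.8 CPM, and IgG 1 to 4 had 40.7, 44.1, 42.2 and 43.1 CPM. All IgG libraries were above all controls, and IgG libraries differed less among themselves (42.5 CPM ± 1.44) than controls did (32.3 CPM ± 3.29; SD, n = 4 each). The log2 changes were 0.55, 0.35, 0.41 and 0.31 in pairs 1 to 4, so this gene did not divide the pairs. Its log2 fold change was 0.40 (SE 0.09, 95% interval 0.19 to 0.61), with an unadjusted p of 0.00208 and an adjusted p of 0.168 by edgeR. Under the likelihood ratio test of edgeR the adjusted p was 0.0293, which made it the 1 entry called by that test, where 1.86% of all genes were.

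The other 3 genes of ER-associated degradation had log2 fold changes near 0. Syvn1 (HRD1), the ubiquitin ligase of the pathway, had 56.96 to 59.97 CPM in control and 51.05 to 60.49 CPM with IgG, with a log2 fold change of -0.07. Sel1l, its adaptor, had 196 and 180 CPM in IgG 1 and 3, 157 CPM in IgG 2 and 121 CPM in IgG 4, against 139 to 165 CPM in control. Leaving out pair 1 or pair 3 turned the sign of its log2 fold change of 0.07. Edem1, which recognises mannose-trimmed glycoproteins, had 231 to 255 CPM in control and 229 to 296 CPM with IgG, and its log2 fold change was also 0.07.

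Of the sensors, Eif2ak3 (PERK), which overlaps Gm43292, was the 1 entry lower at an unadjusted p under 0.05. Controls 1 to 4 had 31.93, 36.9, 34.6 and 38.4 CPM and IgG 1 to 4 had 31.95, 30.9, 26.1 and 30.3 CPM. It was lower in pairs 2, 3 and 4 and level in pair 1, and the groups overlapped only through control 1 and IgG 1. The log2 fold change was -0.25 (SE 0.10, unadjusted p = 0.0387, adjusted p = 0.474 by edgeR). Ern1 (IRE1α) had a log2 fold change of -0.08 (95% interval -0.33 to 0.18). Atf6 had 111 CPM in IgG 3 and 110 CPM in IgG 1 but 72.3 CPM in IgG 2 and 61.2 CPM in IgG 4, against 68.9 to 74.5 CPM in control. The log2 changes of Atf6 were 0.62 and 0.69 in pairs 1 and 3, and -0.28 in pair 4.

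Xbp1, the transcription factor made active by IRE1α, had 119, 106, 108 and 109 CPM in controls 1 to 4 and 148, 113, 150 and 114 CPM in IgG 1 to 4. It was higher in every pair, and the groups overlapped because IgG 2 and IgG 4 were below control 1. The log2 fold change was 0.24 (SE 0.10, unadjusted p = 0.0426, adjusted p = 0.477 by edgeR).

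**Figure D3:**
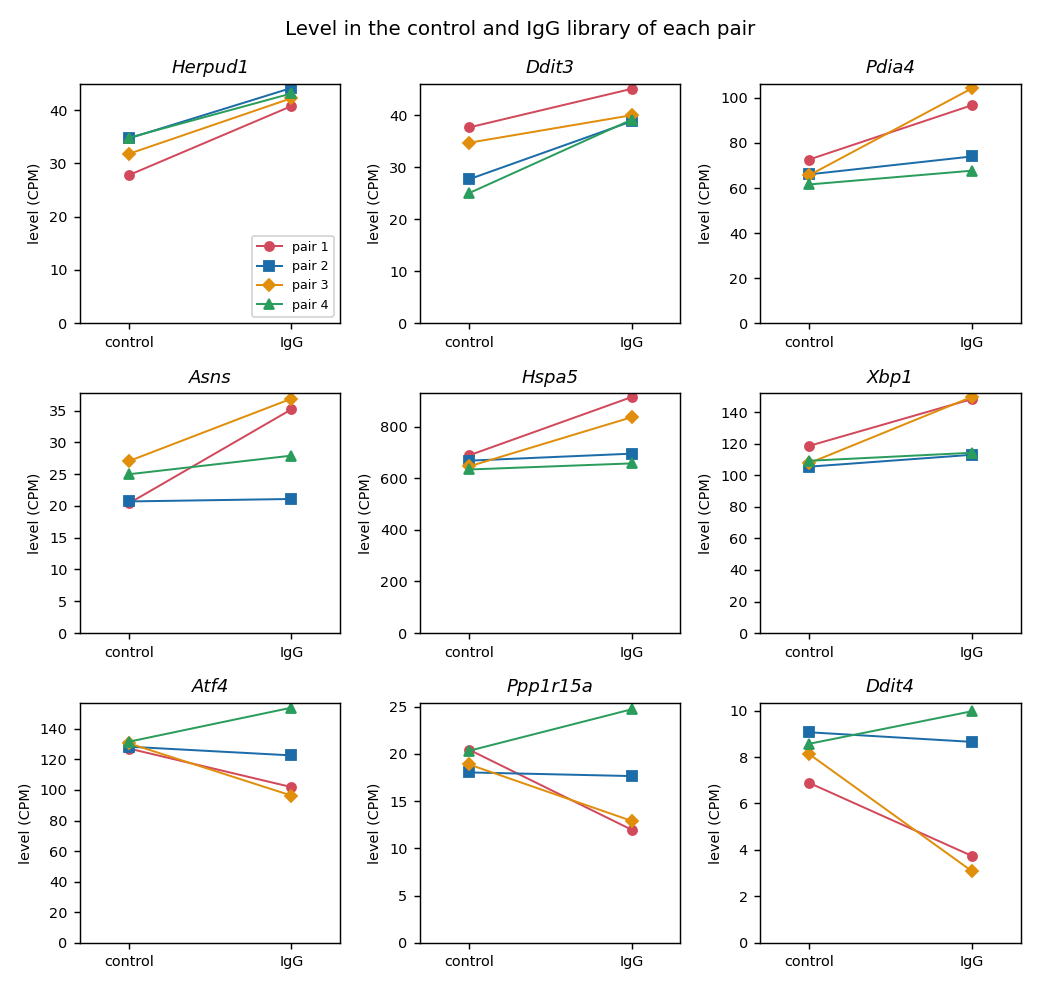
Level (CPM, axes from 0) of 9 genes in the control and the IgG library of each pair, each joined by a line. Herpud1 and Ddit3 are higher with IgG along all 4 lines, and their groups do not overlap on this TMM-scaled level, whereas Atf4, Ppp1r15a and Ddit4 go down in pairs 1 and 3 and up in pair 4.

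Ddit3 (CHOP), a transcription factor of prolonged ER stress, lies at chr10:127290774-127296288 on the plus strand. Controls 1 to 4 had 37.7, 27.7, 34.7 and 25.0 CPM and IgG 1 to 4 had 45.1, 38.8, 40.0 and 39.1 CPM. All IgG libraries were above all controls on TMM-scaled totals, but not with library totals only. The log2 changes of 0.26, 0.49, 0.20 and 0.64 in pairs 1 to 4 were larger in pairs 2 and 4, whose controls were the lower ones. The log2 fold change was 0.40 (SE 0.11, 95% interval 0.15 to 0.64), with an unadjusted p of 0.00534 and an adjusted p of 0.278 by edgeR. The second Ddit3 entry, at chr10:127290829-127293753, is short, and all of its exonic bases lie inside exons of the first. Its log2 fold change of 0.39 (SE 0.12) is thus not a separate observation, and how reads were divided between the 2 entries is not given in the sources used here. The first entry also shares 68 exonic bases with Mars on the opposite strand.

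The other factors did not follow Ddit3. Atf4, the central factor of the integrated stress response, had 127 to 132 CPM in control, a narrow range. IgG 1 to 4 had 102, 123, 96.3 and 154 CPM, below the controls in pairs 1, 2 and 3 and above them in pair 4. Its log2 fold change was -0.15 (95% interval -0.43 to 0.13, adjusted p = 0.665 by edgeR). Atf3 had 322 to 341 CPM in control and 271, 285, 259 and 327 CPM in IgG 1 to 4, a log2 fold change of -0.22 (SE 0.10, adjusted p = 0.499 by edgeR). Atf5 had 35.8 to 44.1 CPM in control and 30.9 to 52.7 CPM with IgG, and its log2 fold change of -0.01 turned to 0.17 once trends on exon length and GC content were removed.

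Among the targets, Asns, which makes asparagine and is a standard target of ATF4, was higher in every pair. It had 20.4, 20.7, 27.0 and 25.0 CPM in controls 1 to 4 and 35.2, 21.1, 36.9 and 27.9 CPM in IgG 1 to 4. The log2 changes were 0.78 and 0.45 in pairs 1 and 3 and 0.03 and 0.16 in pairs 2 and 4, and the groups overlapped. The log2 fold change was 0.36 (SE 0.14, unadjusted p = 0.0303, adjusted p = 0.459 by edgeR). The CARE match before Asns is TGATGAAA, 23 to 16 bases before the RefSeq start. By GENCODE positions this match lies inside the gene, as do the Hspa5 ERSE match and the Atf3 CARE match.

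Sesn2 (sestrin 2), a stress-induced inhibitor of mTORC1, was higher in every pair with 22.7 to 25.0 CPM in control and 30.8, 24.3, 31.3 and 24.2 CPM in IgG 1 to 4 (log2 fold change 0.21, SE 0.10). Chac1, which degrades glutathione, and Trib3, a pseudokinase that restrains ATF4 and CHOP, were low in all libraries, at 1.91 to 3.44 CPM and 4.69 to 6.87 CPM. Their log2 fold changes were 0.20 (SE 0.20) and 0.15 (SE 0.14).

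Ddit4 (REDD1), another inhibitor of mTORC1, differed most between pairs. Controls 1 to 4 had 6.88, 9.06, 8.12 and 8.57 CPM, and IgG 1 to 4 had 3.75, 8.65, 3.09 and 9.97 CPM. IgG 1 and 3 were below every control and IgG 4 was above every control. The log2 changes of -0.86, -0.07, -1.37 and 0.22 gave a log2 fold change of -0.49 with the widest error of all entries (SE 0.26, adjusted p = 0.546 by edgeR). Ppp1r15a (GADD34), which reverses eIF2α phosphorylation, moved in the same way. It had 18.0 to 20.4 CPM in control and 12.0, 17.7, 12.9 and 24.7 CPM in IgG 1 to 4, a log2 fold change of -0.26 (SE 0.18, adjusted p = 0.614 by edgeR).

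The pairs differed in direction for 15 entries in 1 way or its reverse, about as often as over all genes. In 7 entries, Canx, Dnajb9, Dnajc3, Sel1l, Edem1, Atf6 and Trib3, the level was higher with IgG in pairs 1 and 3 and lower in pair 4, as it was in 24.2% of all genes. In 8 entries, Manf, Creld2, Syvn1, Atf4, Atf3, Atf5, Ddit4 and Ppp1r15a, it was the reverse, as it was in 23.8% of all genes. Across the 33 entries the changes of pair 1 and pair 3 had a Spearman rho of 0.89 (0.67 over all genes), and those of pair 3 and pair 4 a rho of -0.37 (-0.17 over all genes). These are correlations across genes, which are not independent replicates.

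The changes also varied with GC content, the share of G and C bases in the longest transcript. Across the 33 entries the Spearman rho of change with GC content was -0.52 in pair 1, -0.04 in pair 2, -0.55 in pair 3 and 0.35 in pair 4. Over all genes it was -0.38, -0.03, -0.39 and 0.31 in the same order. The genes with the lowest GC content, such as Dnajb9 (40.6%), Hsp90b1 (42.1%) and Canx (42.2%), were thus high in IgG 1 and 3, while Ddit4 (57.9%) and Ppp1r15a (55.7%) were low there. Chac1, Trib3 and Sesn2, at 57.4% to 58.7%, did not follow this order and were higher in pairs 1 and 3. The mitochondrial share was high in the same 2 libraries, and its part in the result was not tested.

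**Figure D4:**
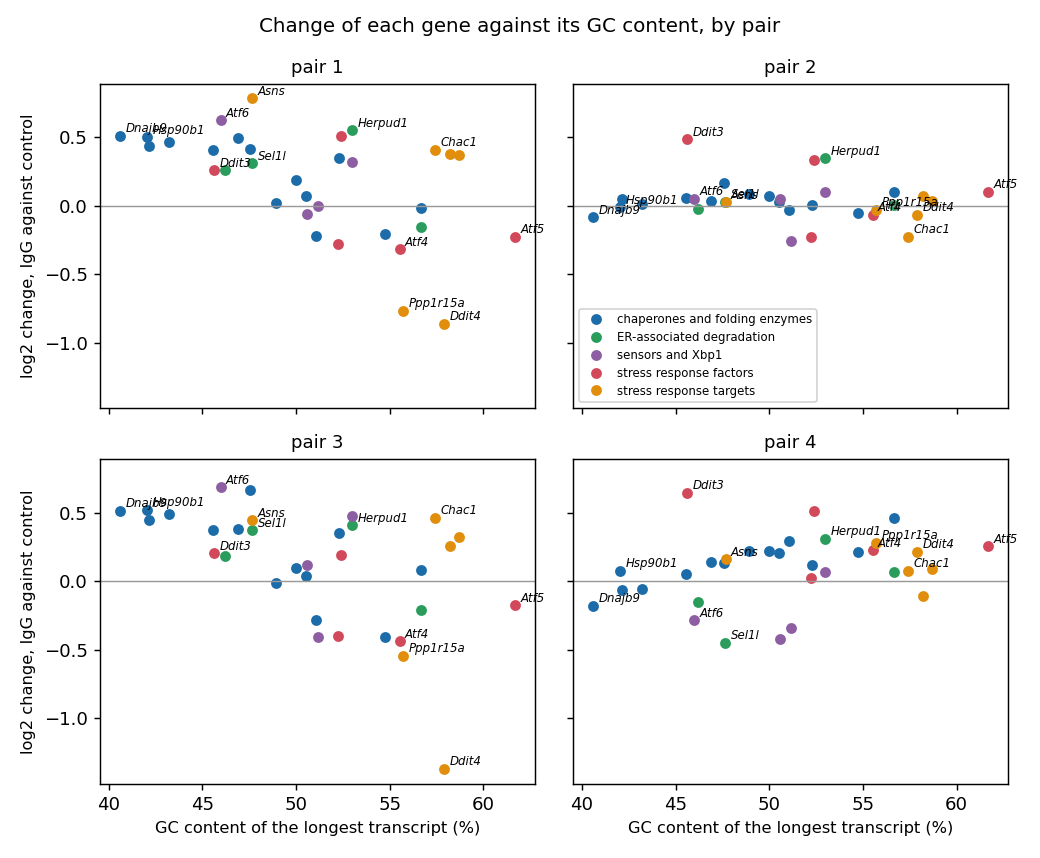
Log2 change from control to IgG against the GC content of the longest transcript (%), 1 panel per pair and 1 point per entry, coloured by role. The points slope down with GC content in pairs 1 and 3 (rho -0.52 and -0.55), are flat in pair 2 (rho -0.04) and slope up in pair 4 (rho 0.35).

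With trends on exon length and GC content removed from each library, 0 entries passed an adjusted p of 0.05 by edgeR, while 1.2% of all genes did. At an unadjusted p under 0.05, 11 entries were higher, against 9.03% of all genes, and 2 were lower (Eif2ak3 and Atf3), against 5.22%. The log2 fold change of Ddit3 remained 0.40 with an adjusted p of 0.0647, and that of Herpud1 was 0.44 with an adjusted p of 0.104. In this setting 15 entries were higher in all 4 pairs, against 12.7% of all genes, and 3 were lower in all 4 (Eif2ak3, Atf3 and Ddit4), against 9.62%. Of the 32 symbols with the longer Ddit3 entry only, 14 were higher in all 4 pairs. At an unadjusted p under 0.05 by edgeR, 10 of these symbols were higher. The rho of pairs 1 and 3 across the entries was 0.94 in this setting (0.61 over all genes). That of pairs 3 and 4 moved from -0.37 to 0.028 (-0.17 to -0.020 over all genes), and that of pairs 1 and 4 from -0.25 to 0.099 (-0.18 to -0.029 over all genes).

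Pairs 2 and 4, and pairs 1 and 3, were also fitted alone, a choice made after the mitochondrial share was seen. In pairs 2 and 4, Ddit3 was the 1 entry with an adjusted p under 0.05 by edgeR (log2 fold change 0.57, adjusted p = 0.01), where 1.07% of all genes passed. It was also the 1 entry to meet the study's criterion there (1.84% of all genes). Each of these fits rests on 2 pairs only, which leaves little to estimate the spread. Controls 2 and 4 had the lower Ddit3 levels, and over all 4 pairs its adjusted p was 0.278 by edgeR. The call in pairs 2 and 4 is thus no independent support for Ddit3. In pairs 1 and 3, 27 entries passed, 18 higher and 9 lower, but so did 43.6% of all genes, and 5 met the study's criterion (16% of all genes). Herpud1 had log2 fold changes of 0.33 and 0.46 in these fits.

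The variation between the dates in the labels was tested apart from IgG. In edgeR's test of the 3 date terms together, 0 entries passed an adjusted p of 0.05, where 0.975% of all genes did. At an unadjusted p under 0.05 there were 2 entries, Atf5 and the short Ddit3 entry, where 9.81% of all genes passed.

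The wider pathway was described with 7 further lists of 113 genes, of which 109 were tested. None passed an adjusted p of 0.05, and 9 were higher and 0 lower at an unadjusted p under 0.05 by edgeR, where 6.35% of all genes were higher and 3.85% lower. Those shares are the background of each single list as well. In all, 81 of 109 had a log2 fold change above 0, where 49.1% of all genes did, with a median of 0.09. With library totals only, 50 of the 109 were above 0, where 30.2% of all genes were, with a median of -0.013, and the median was below 0 in every list other than the aminoacyl-tRNA synthetases. Of 16 genes of sensors and regulators, Eif2ak2 (PKR) had the largest log2 fold change, 0.48 (SE 0.13, unadjusted p = 0.00592, adjusted p = 0.289 by edgeR). PKR is an eIF2α kinase that responds to double-stranded RNA and whose gene is induced by interferon. Its level was 85.7 CPM ± 17.7 without IgG and 126 CPM ± 49.5 with it (SD, n = 4 each). Eif2ak2 was higher in every pair, though more so in pairs 1 and 3 (log2 changes of 0.71 and 0.80) than in pairs 2 and 4 (0.35 and 0.07).

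Of 12 tested genes of ER-associated degradation, 3 were higher at an unadjusted p under 0.05 (6.35% of all genes) and none lower (3.85%). One was Vcp, the ATPase that pulls proteins out of the ER membrane, with 178 CPM ± 2.03 without IgG and 232 CPM ± 47.8 with it (SD, n = 4 each; log2 fold change 0.36, SE 0.12, adjusted p = 0.408 by edgeR). Of 16 genes of entry into the secretory pathway, 1 was higher at that threshold (6.35% of all genes). It was Kdelr2, a receptor that returns ER proteins from the Golgi (log2 fold change 0.35, SE 0.13, adjusted p = 0.434 by edgeR). All 18 aminoacyl-tRNA synthetases, many of which are ATF4 targets, had a log2 fold change above 0, where 49.1% of all genes did, with a median of 0.20 and a highest value of 0.31 for Aars (SE 0.09, adjusted p = 0.36 by edgeR). With library totals only, 14 of the 18 were above 0, where 30.2% of all genes were, and their median was 0.10. At an unadjusted p under 0.05, 3 of these 18 were higher, against 6.35% of all genes. Of the other lists, 0 of 14 folding genes and 0 of 14 tested genes of stress outcome passed that threshold, and 1 of 19 tested genes of amino acid metabolism and transport did, Mthfd2 (named after its value was seen), with a log2 fold change of 0.26. The medians of these 3 lists were 0.08, -0.02 and 0.09, and -0.016, -0.12 and -0.0076 with library totals only, where that of all genes was -0.11.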

How the data were processed

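The authors deposited raw counts for each Ensembl gene, from oligo(dT)-selected RNA aligned to mm10. The submitters' processing notes name HISAT2 2.2.1, SAMtools 1.12, Picard 2.26.3, featureCounts and edgeR 3.36.0 in R 4.1.2. The annotation, use of strand and treatment of reads with several alignments are not given in the sources used here. GENCODE M21 gave symbols, positions, exon lengths and transcript GC content and held 55144 of 55385 identifiers.

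Counts were filtered with filterByExpr, scaled with TMM and tested with edgeR 4.0.16 (R 4.3.3) in a model of pair and group, with Benjamini-Hochberg adjustment over 17537 genes. The labels give libraries of the same number the same date, without saying what it marks. Deviations from the group means correlated at 0.26 to 0.41 between libraries of the same number and at -0.34 to 0.20 otherwise, over 15669 genes. The study's methods state no block, and the fit without it is given as an alternative. CPM values use TMM-scaled totals, the share of counts taken by mitochondrial genes or chaperones uses raw totals, and changes within pairs are differences of log2 CPM with a prior count of 2. P-values measure the spread between these cultures only. DESeq2 1.42.0 and limma 3.58.1 (voom) were alternatives. The test was tested on simulated data for this comparison over 17316 genes, where 92% of genes with a log2 change of 1 and 22% of those with 0.5 were recovered, and 56% and 1% without the block. Changes were simulated as equal in every pair, and only in genes without low counts.

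All 32 symbols were described. From the further lists, genes past an adjusted p of 0.05 were to be named, and up to 4 with the largest rise and 4 with the largest fall among those with an unadjusted p under 0.05 and 1 sign in all pairs. There were 4 such rises and no such fall. The rule for the genes uses no measured value, but genes, lists and motifs were chosen with earlier results of these data known. No set test was run. Markers of neurons, endothelium, fibroblasts or pericytes and border macrophages were also summed, at 34.0 to 63.6, 119 to 161, 3.48 to 5.64 and 50.6 to 106 CPM per library, with Cldn5 at 0 in all. Flt1 alone made up most of the endothelial sum, at 118 to 161 CPM. Mrc1 alone made up most of the border macrophage sum, at 42.7 to 101 CPM. Protein sequences were not used here.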

Additional observations from a re-analysis of the deposited data

Results flagged for a closer look

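In 66 groups of 4 libraries (each entry in each treatment), 1 library stood apart by Dixon's test, where chance alone gives about 1 in 20 groups. Ern1, which encodes the sensor IRE1α, had 35.7 CPM in IgG 4, while the other IgG libraries had 46.5 to 47.9 CPM. Without pair 4 the log2 fold change of Ern1 was 0.02 in place of -0.08.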

How the results depend on the processing

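The count of 0 entries at an adjusted p of 0.05 held with RLE size factors, library totals only, TMM without mitochondrial genes, no filter, at least 10 counts in every library, trends removed, DESeq2, limma-voom and each pair left out in turn, but 0, 14 and 16 of all genes passed without pairs 2, 1 and 3, so those fits say little about the entries. With library totals only 4 entries were higher (3.28% of all genes) and 2 lower (8.68%) at an unadjusted p under 0.05. The likelihood ratio test gave 1 (Herpud1). Without the replicate block 0 entries passed, the smallest adjusted p was 0.578, and 6 entries were higher and 2 lower at an unadjusted p under 0.05; the log2 fold change of Atf5 became 0.0084, and no other sign changed. The calls over the further lists ranged from 0 to 1 with pairs left out (1 without pair 4, Eif2ak2) and were 1 with no filter (Eif2ak2). With library totals only the median of the entries was 0.06 and that of all genes -0.11, and Pdia6, Dnajb11, Sel1l and Edem1 turned to -0.021, -0.016, -0.034 and -0.032. With trends removed Atf5 turned to 0.17. With pairs left out in turn, the log2 fold changes that changed sign ran from -0.19 to 0.014 for Manf, -0.035 to 0.22 for Sel1l, -0.14 to 0.021 for Ern1 and -0.12 to 0.061 for Atf5.

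Fits on 2 of the 4 pairs were added after seeing the data and rest on few libraries, so calls in them are no independent support. With replicates 1 and 3 left out, 1 entry passed an adjusted p of 0.05 and 1 met the study's criterion (Ddit3 in both). In the further lists 1 gene, Nupr1, passed an adjusted p of 0.05 (0.0274 by edgeR). Nupr1 also met the study's criterion, with a log2 fold change of 0.72 and an unadjusted p of 0.000235 by edgeR. Signs turned for Canx (-0.0087), Dnajb9 (-0.13), Dnajc3 (-0.022), Manf (0.13), Creld2 (0.081), Syvn1 (0.038), Sel1l (-0.21), Edem1 (-0.089), Atf6 (-0.12), Atf4 (0.081), Atf5 (0.18), Chac1 (-0.079), Trib3 (-0.020), Ddit4 (0.076) and Ppp1r15a (0.13). With replicates 2 and 4 left out, 27 entries passed, 5 met the criterion, 65 genes of the further lists passed, the median was 0.30, and Pdia6 (-0.012) and Ern1 (0.011) turned. The cause of these differences was not tested. In the simulation of all 4 pairs, 22% of genes changed by 0.5 on the log2 scale were recovered, and no entry had a larger fitted change in the fit of all pairs.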

Other observations

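The aminoacyl-tRNA synthetases had a median log2 fold change above 0 both in pairs 1 and 3 and in pairs 2 and 4, though unequally. In pairs 1 and 3, where 43.6% of all genes passed an adjusted p of 0.05 by edgeR, 14 of the 18 passed, all higher, with a median of 0.27. In pairs 2 and 4, where 1.07% of all genes passed, 0 of the 18 did, and the median was 0.08. The list was singled out from the fit of all 4 pairs, so these values are no independent support for it.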
